A study of Homo sapiens with 4 samples.

Results

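The genes described here are 10 genes by which hepatocytes, the main cells of the liver, are recognised: ALB, SERPINA1, HPX, TAT, CPS1, AMBP, ASGR1, FGG, G6PC1 and APOA1. They were taken by name from the RefSeq gene table of GRCh38.p14, and all 10 of the 20037 protein-coding genes of chromosomes 1 to 22, X and Y were found in it. Every peak that touched the span from 10 kb before to 10 kb past each gene was counted. The peaks come from CUT&Tag of CHAF1A in the human cell line RBE, which was derived from intrahepatic cholangiocarcinoma, a cancer of the bile ducts within the liver. The cells were transfected either with siRNA against CHAF1A (2 samples) or with control siRNA (2 samples) and were harvested 48 hours later. Each group gave 1 deposited peak list, here called the si-CHAF1A list and the si-Ctrl list, and neither list has columns for single samples. Whether a list was made from both samples of its group or from 1 of them is not stated. Differences between the lists therefore could not be checked over replicates, and none is tested.

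Hepatocytes make most plasma proteins and run gluconeogenesis and the urea cycle. Their genes are switched on together by a small circuit of transcription factors, among them HNF4 and C/EBP proteins, and cholangiocytes arise from the same embryonic precursors but keep these genes largely silent. CHAF1A is the large subunit of CAF-1, a chaperone that deposits histones H3 and H4 on newly copied DNA, and CAF-1 is known for guarding cell identity by keeping genes of other lineages closed. In CUT&Tag an antibody guides a transposase to its target, so fragments accumulate where the target sits. RNA was not measured in this series, so a peak at one of these genes says nothing about whether the gene is transcribed, and the level of CHAF1A after knockdown was not analysed here.

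The data consist of 97653 peaks in the si-CHAF1A list and 76313 in the si-Ctrl list on chromosomes 1 to 22, X and Y. Each peak has a fold enrichment, the linear ratio of the reads piled up at its summit to the local background, and a −log10 q, its significance within its own list. Both are the authors' values. They were solved for the reads themselves, which gave a most frequent background of 8.49 reads per position behind the si-CHAF1A list and 6.34 behind the si-Ctrl list, a ratio of 1.34. The median fold enrichment of all peaks was 3.19 in the si-CHAF1A list and 3.72 in the si-Ctrl list. The part of this depth in the differences below, and the part of transposase access to open chromatin in any peak, was not tested.

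The promoters that the results turn on are printed here as the 250 bases before the RefSeq start site, 5′ to 3′ on the strand of the gene (RefSeq, GRCh38.p14). The SERPINA1 promoters are shown because peaks covered them, downstream in both lists and upstream in the si-CHAF1A list only. G6PC1 and FGG are shown because a peak reached into the promoter in the si-CHAF1A list only. ALB is shown because it had no peak in either list. Capitals mark matches to the motifs reported here, which are TTGCNNAA (C/EBP), AAAGTCCA (part of an HNF4 site) and TATAAA (the TATA box), each on both strands. The promoters of SERPINA1 and FGG hold no match to these motifs, and other motifs are not reported here.
SERPINA1, downstream start, chr14:94388603-94388852, minus strand: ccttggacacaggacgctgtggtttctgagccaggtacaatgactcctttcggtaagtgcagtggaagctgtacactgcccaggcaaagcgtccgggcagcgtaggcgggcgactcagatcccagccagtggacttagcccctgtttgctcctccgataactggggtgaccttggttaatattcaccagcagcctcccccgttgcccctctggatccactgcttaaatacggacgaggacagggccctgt
SERPINA1, upstream start, chr14:94390636-94390885, minus strand: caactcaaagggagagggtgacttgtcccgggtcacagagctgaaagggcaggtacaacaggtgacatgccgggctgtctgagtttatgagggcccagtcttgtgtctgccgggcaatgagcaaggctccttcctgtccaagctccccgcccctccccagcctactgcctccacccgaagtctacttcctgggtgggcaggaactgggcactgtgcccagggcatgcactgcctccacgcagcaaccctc
G6PC1, chr17:42900549-42900798, plus strand: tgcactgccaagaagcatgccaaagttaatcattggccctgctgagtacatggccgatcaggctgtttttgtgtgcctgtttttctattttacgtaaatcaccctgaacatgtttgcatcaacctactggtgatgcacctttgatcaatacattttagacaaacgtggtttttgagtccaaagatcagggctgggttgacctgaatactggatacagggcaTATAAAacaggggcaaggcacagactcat
FGG, chr4:154612657-154612906, minus strand: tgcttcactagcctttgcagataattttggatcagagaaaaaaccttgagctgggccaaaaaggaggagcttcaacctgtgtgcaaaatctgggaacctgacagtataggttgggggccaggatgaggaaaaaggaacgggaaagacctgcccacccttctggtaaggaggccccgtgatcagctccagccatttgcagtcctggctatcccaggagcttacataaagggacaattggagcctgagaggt
ALB, chr4:73404037-73404286, plus strand: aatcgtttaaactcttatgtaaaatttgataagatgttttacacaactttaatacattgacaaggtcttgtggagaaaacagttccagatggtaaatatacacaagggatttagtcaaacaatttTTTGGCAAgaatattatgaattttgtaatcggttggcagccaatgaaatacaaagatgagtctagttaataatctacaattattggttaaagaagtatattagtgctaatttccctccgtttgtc

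Across the 10 genes, 25 peaks were found in the si-CHAF1A list and 14 in the si-Ctrl list. Both lists had a peak at 7 of the 10 genes, beside 82.9% of all protein-coding genes. A peak lay within 10 kb of 8 of the 10 genes in the si-CHAF1A list, where 87.7% of all protein-coding genes had one. In the si-Ctrl list it did so at 7 of the 10, where 85.2% had one. These shares are over windows of unlike length, with a median of 32.5 kb for the 10 genes and 44.1 kb for all protein-coding genes. CPS1 was the gene with a peak in the si-CHAF1A list only, a pattern of 4.86% of all genes. No member had a peak in the si-Ctrl list only (2.37% of all genes), and ALB and APOA1 had none in either list (9.91% of all genes). The si-CHAF1A list held more peaks than the si-Ctrl list at 6 of the 10 genes (SERPINA1, HPX, CPS1, AMBP, ASGR1 and G6PC1), against 49.9% of all genes. It held fewer at TAT alone, against 18.2% of all genes.

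Per length of window, the 10 genes had 4.98 peaks per 100 kb in the si-CHAF1A list and 2.79 in the si-Ctrl list. Over all protein-coding windows these densities were 5.08 and 4.02. CPS1 alone made up 221 of the 502 kb, and without it the other 9 genes had 7.84 peaks per 100 kb in the si-CHAF1A list and 4.99 in the si-Ctrl list. The ratio of si-CHAF1A to si-Ctrl peaks was 1.79 with CPS1 and 1.57 without it, beside 1.26 over all windows. With −log10 q of at least 10, the si-CHAF1A list kept 9 peaks at these genes (36.0%) and the si-Ctrl list 8 (57.1%), beside 39.7% of all si-CHAF1A and 48.6% of all si-Ctrl peaks.

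**Figure D1:**
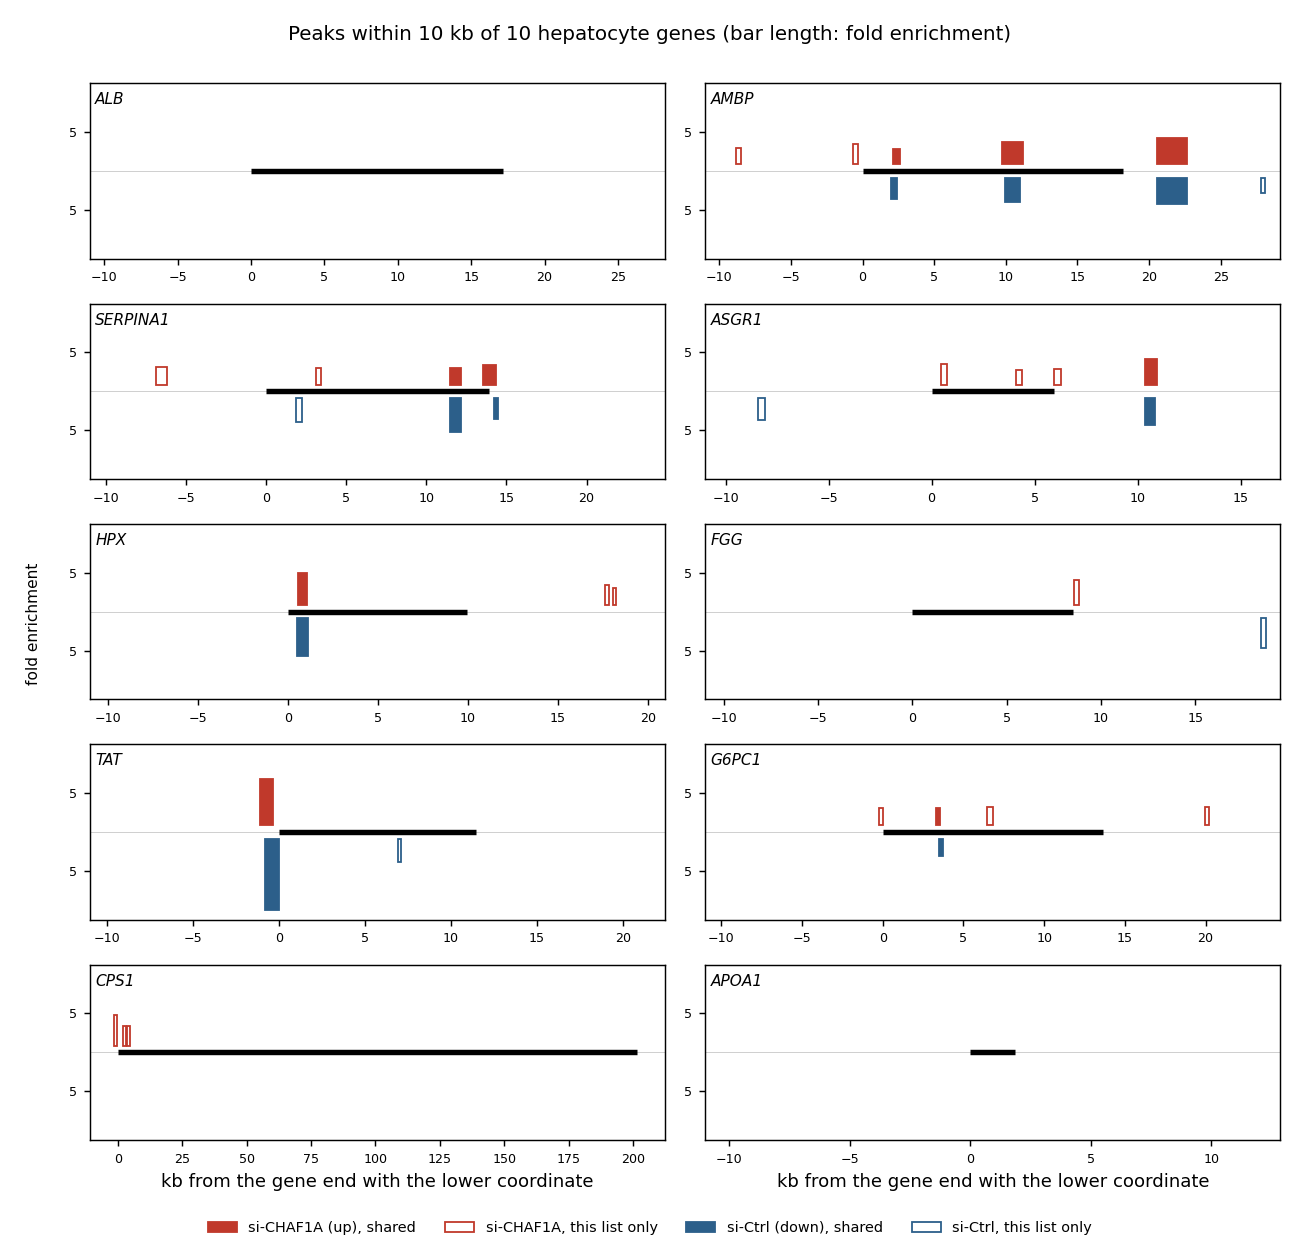
Peaks of both lists around each of the 10 genes. The horizontal axis is the distance in kb from the gene end with the lower coordinate, the black line is the gene, and the length of a bar is the fold enrichment, upwards for si-CHAF1A and downwards for si-Ctrl; filled bars overlap a peak of the other list, and narrow peaks are drawn at a minimum width. ALB and APOA1 are empty, CPS1 has 3 si-CHAF1A peaks at its low end and no si-Ctrl peak, and TAT has the longest bars.

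Of the peaks at the 10 genes, 9 of 25 in the si-CHAF1A list (36.0%, 95% exact binomial interval 18.0 to 57.5) overlapped a si-Ctrl peak by at least 1 bp, and 9 of 14 in the si-Ctrl list (64.3%, 35.1 to 87.2) overlapped a si-CHAF1A peak. Over the whole lists 47.5% of si-CHAF1A and 61.9% of si-Ctrl peaks did so, and both values lie within the intervals, which cover counting error only. Peaks found in 1 list were weaker at the median. Their median −log10 q was 6.44 in the si-CHAF1A list and 6.61 in the si-Ctrl list, while the shared peaks had medians of 16.5 and 16.1. In width the peaks ran from 183 to 2101 bp in the si-CHAF1A list and from 176 to 2094 bp in the si-Ctrl list, with the AMBP upstream peak as the widest in each.

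Among the secreted proteins, albumin, the main protein of plasma and a carrier of fatty acids and hormones, is encoded by ALB (chromosome 4, 73404287 to 73421482). The peak nearest to ALB lay 121.8 kb past the gene in each list, at 73543233 to 73543495 in the si-CHAF1A list (fold enrichment 4.53) and at 73543278 to 73543499 in the si-Ctrl list (4.36). Of all protein-coding genes, 3.18% were farther than ALB from any si-CHAF1A peak and 3.74% from any si-Ctrl peak. The neighbouring genes of the albumin family, AFP and AFM, shared this empty stretch, which spans 99.7 kb from ALB to the end of AFM and had no peak of either list, 10 kb on each side included. The ALB promoter printed above carries a C/EBP match on the opposite strand from 125 to 118 bases before the start. It had 30.0% G and C, beside a median of 55.2% for promoters under no peak and 65.2% for promoters under a peak of either list. Among the other promoters of the 10 genes, those touched by a peak had 44% (G6PC1), 50.8% (FGG), and 58% and 61.6% (SERPINA1). Those under no peak had 33.6%, 40% and 48.4% (CPS1), 52% (HPX) and 62% (AMBP).

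APOA1 (chromosome 11, 116835751 to 116837622) encodes the main protein of high-density lipoprotein and lies in a cluster with APOC3, APOA4 and APOA5. Its nearest peaks were 47.2 kb away in the si-CHAF1A list (116788272 to 116788502, fold enrichment 3.20) and 16.0 kb away in the si-Ctrl list (116853624 to 116853832, fold enrichment 5.58). The si-Ctrl peak lies within the spans of SIK3 and APOA1-AS, and the other peak lies beyond APOA5, at the far end of the cluster. Of all protein-coding genes, 6.00% were farther from a si-CHAF1A peak and 12.5% farther from a si-Ctrl peak.

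SERPINA1 (chromosome 14, 94376747 to 94390635) encodes alpha-1-antitrypsin, the inhibitor of neutrophil elastase. It is read from a downstream promoter in hepatocytes and from an upstream promoter in macrophages. Over the downstream start, the si-CHAF1A peak (94388260 to 94388886) had a fold enrichment of 2.56 with 53 reads over a background of 20.1. The si-Ctrl peak at this site (94388260 to 94388898) had a fold enrichment of 5.28 with 80 reads over 14.3. The −log10 q was 7.12 in the si-CHAF1A list and 30.1 in the si-Ctrl list. Both peaks begin at the same base and cover the whole promoter printed above, but their summits lay 485 bp apart, 310 bases past the start in the si-CHAF1A list and 175 bases before it in the si-Ctrl list.

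The ratio of the fold enrichments at the downstream SERPINA1 start, si-CHAF1A over si-Ctrl, was 0.485. Among 43447 peak pairs that overlap one to one, the median ratio was 0.884 and 0.882% had a lower ratio than SERPINA1. Over the upstream SERPINA1 start, the si-CHAF1A peak (94390303 to 94391075) covered the whole promoter, with a fold enrichment of 3.08 and a summit 9 bases past the start. The si-Ctrl peak there (94391004 to 94391247, fold enrichment 3.24) lay 369 bp upstream of the gene and met the si-CHAF1A peak over 72 bp. Within the gene, a si-CHAF1A peak at 94379884 to 94380163 (fold enrichment 2.56) and a si-Ctrl peak at 94378595 to 94378973 (3.65) were 911 bp apart and not shared. The remaining si-CHAF1A peak lay 6.19 kb past the gene (94369924 to 94370557, fold enrichment 2.82).

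HPX (chromosome 11, 6431049 to 6440987) encodes hemopexin, which binds free heme. Its one shared peak lay within the gene near the 3′ end, at 6431625 to 6432139 in the si-CHAF1A list (fold enrichment 4.97, −log10 q 23.4) and at 6431580 to 6432190 in the si-Ctrl list (5.91, 26.3). The summits were 25 bp apart, 8959 bases past the start in the si-CHAF1A list and 8984 in the si-Ctrl list. The si-CHAF1A list had a further pair of peaks upstream, at 6448671 to 6448886 (fold enrichment 3.12) and 6449081 to 6449270 (2.69), both inside the neighbouring gene TRIM3, which encodes a ubiquitin ligase. The 300-base window around the HPX start held no peak in either list.

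AMBP (chromosome 9, 114060127 to 114078300) encodes the precursor of alpha-1-microglobulin and bikunin, a heme scavenger and a protease inhibitor. It had 5 peaks in the si-CHAF1A list and 4 in the si-Ctrl list, 3 of them shared. The strongest lay upstream of the start, at 114080674 to 114082774 in the si-CHAF1A list (fold enrichment 4.11, 151 reads over 36.0) and at 114080708 to 114082801 in the si-Ctrl list (4.04, 132 reads over 31.9). It overlaps the uncharacterised long noncoding RNA gene LOC107987120. The peaks within the gene had fold enrichments of 3.49 and 2.35 in the si-CHAF1A list and of 3.78 and 3.24 in the si-Ctrl list. Of the peaks not shared, si-CHAF1A peaks lay 332 bp past the 3′ end of the gene (114059453 to 114059795, fold enrichment 3.16) and inside ZNF618 (2.50), and the si-Ctrl peak lay 9.69 kb upstream (2.36).

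FGG (chromosome 4, 154604136 to 154612656) encodes the gamma chain of fibrinogen, the clotting protein. Each list had 1 peak in the window, at different places. The si-CHAF1A peak (154612726 to 154612994) began 70 bp upstream of the gene and covered 181 of the 250 promoter bases printed above. It had a fold enrichment of 3.90, from 36 reads over 8.49, and a −log10 q of 9.76. Its summit lay 280 bases before the start, outside the printed bases, and the peak did not reach the start itself. The nearest si-Ctrl peak was 9.62 kb away, at 154622615 to 154622888 (fold enrichment 4.61, −log10 q 16.2), and lay just inside the edge of the window, 9959 bp from the gene. The first peak beyond the edge lay 10767 bp from FGG in the si-CHAF1A list (fold enrichment 2.74) and 14143 bp in the si-Ctrl list (5.97).

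ASGR1 (chromosome 17, 7173431 to 7179370) encodes the major subunit of the asialoglycoprotein receptor, which clears glycoproteins from blood at the hepatocyte surface. The shared peak lay 4.44 kb from the gene, at 7183808 to 7184365 in the si-CHAF1A list (fold enrichment 4.03) and at 7183808 to 7184296 in the si-Ctrl list (4.18). In the gene itself there were 3 si-CHAF1A peaks, with fold enrichments of 3.15, 2.28 and 2.40, and no si-Ctrl peak. The last of these (7179351 to 7179724) spans the gene end with the higher coordinate. The si-Ctrl list had an unshared peak 8.08 kb from the other end (7164981 to 7165347, fold enrichment 3.42).

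Among the metabolic enzymes, TAT (chromosome 16, 71565660 to 71577092), the tyrosine aminotransferase that begins tyrosine breakdown, had the strongest peak of the 10 genes in both lists. The si-CHAF1A peak (71564557 to 71565299) had a fold enrichment of 7.22, from 88 reads over 11.3, and a −log10 q of 43.9. The si-Ctrl peak (71564879 to 71565650) had a fold enrichment of 11.1, from 115 reads over 9.49, and a −log10 q of 77.6. The summits were 1 bp apart. The peaks stood at percentiles of 93.5 and 95.0 of −log10 q within their lists. They lay next to the gene end with the lower coordinate, 361 bp from it in the si-CHAF1A list and 10 bp in the si-Ctrl list, and overlapped the noncoding genes TAT-AS1 and LOC124903710. The ratio of the fold enrichments was 0.653, and 8.99% of all pairs had a lower one. The si-Ctrl list had a second peak inside TAT (71572578 to 71572768, fold enrichment 3.68, 26 reads over 6.34).

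CPS1 (chromosome 2, 210477685 to 210679107) encodes the mitochondrial carbamoyl phosphate synthetase that starts the urea cycle. It is the longest of the 10 genes at 201 kb, and its 3 peaks, all in the si-CHAF1A list, sat in the first few kb around its most upstream start. The strongest (210476609 to 210476792) had a fold enrichment of 4.74, from 44 reads over 8.49, a −log10 q of 15.1 and a summit 956 bases before the most upstream RefSeq start. It lies inside LANCL1, a neighbouring gene that spans 210431251 to 210477584. The other peaks, at 210480184 to 210480415 and 210481754 to 210481936, had 28 reads each and fold enrichments of 3.03 and 3.06. The nearest si-Ctrl peak was 98.4 kb from the strongest of them and 99.5 kb from the gene. None of the 3 CPS1 start sites in the RefSeq table was under a peak.

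G6PC1 (chromosome 17, 42900799 to 42914438) encodes the catalytic subunit of glucose-6-phosphatase, the last step of glucose release. A si-CHAF1A peak covered its start (42900594 to 42900838), with 43 reads over 15.1, a fold enrichment of 2.74, a −log10 q of 6.59 and a summit 62 bases before the start. It covered 205 of the 250 bases printed above, including TATAAA at 29 to 24 bases before the start. The nearest si-Ctrl peak was 3.47 kb away, inside the gene (42904304 to 42904545, fold enrichment 2.65, 27 reads over 9.55). It had the lowest −log10 q of all member peaks, 3.87, and touched a si-CHAF1A peak (42904127 to 42904343, fold enrichment 2.75) over 40 bp, with summits 231 bp apart. Further si-CHAF1A peaks without a partner lay in the gene (42907268 to 42907648, fold enrichment 2.87) and 6.34 kb past it (42920782 to 42920987, 2.82).

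**Figure D2:**
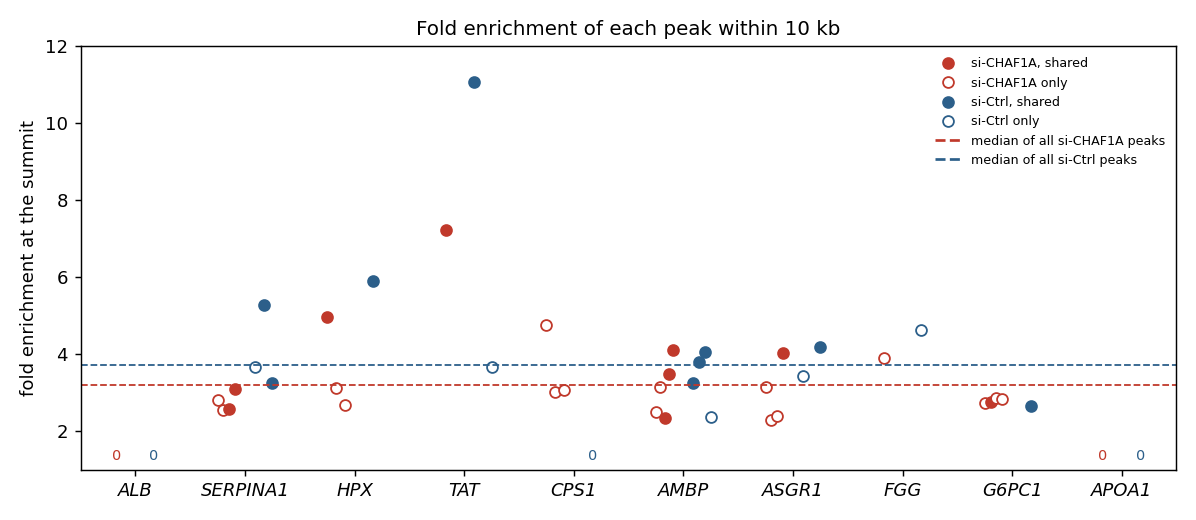
Fold enrichment at the summit of each peak within 10 kb of the 10 genes, with si-CHAF1A peaks to the left of si-Ctrl peaks for each gene, filled where shared, and the median of each whole list as a dashed line. Most peaks lie between 2 and 5, TAT stands highest at 7.22 in si-CHAF1A and 11.1 in si-Ctrl, and a 0 marks a gene without a peak in that list.

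The start sites can be set side by side for the 7 genes with an entry in the RefSeq promoter table (ALB, SERPINA1, HPX, CPS1, AMBP, FGG and G6PC1). A peak touched the 300-base window around a start in 3 of these genes in the si-CHAF1A list (SERPINA1, FGG and G6PC1), where 55.7% of 15843 genes had one. In the si-Ctrl list it did so in SERPINA1 alone, where 54.9% of genes had one. The windows of FGG and G6PC1 were touched in the si-CHAF1A list only, a pattern of 5.3% of all genes. None was touched in the si-Ctrl list only (4.46%). At FGG the start itself was not under the peak. TATAAA occurred in G6PC1 and in 9.0% of all 22199 promoters. The C/EBP motif occurred in ALB and HPX and in 7.50% of all, and AAAGTCCA occurred in none of the members' promoters and in 0.797% of all. No matches overlapped each other, and a match is a run of letters and not a bound site.

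Where peaks overlapped, the ratio of their fold enrichments was between 0.727 and 1.04, apart from SERPINA1 at its downstream start and TAT. Of the 9 overlapping pairs, 7 had a lower fold enrichment in the si-CHAF1A list, as did 74.1% of all pairs, and the median ratio was 0.923. A ratio lower by at least 1.5 times was found in 2 of the 9 pairs, the downstream start of SERPINA1 and TAT, beside 10.3% of all pairs, and a ratio higher by at least 1.5 times in none, beside 0.35%. In reads, the SERPINA1 site had 53 in the si-CHAF1A list and 80 in the si-Ctrl list, at summits 485 bp apart, and the TAT site 88 and 115. The other 7 pairs had more reads in the si-CHAF1A list. The background was higher in the si-CHAF1A list at all 9 pairs, by 1.13 to 1.69 times.

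The 16 si-CHAF1A peaks without a si-Ctrl partner had fold enrichments of 2.28 to 4.74. When their reads and background were scaled to the depth of the si-Ctrl list, all 16 kept an expected −log10 p above 5, the threshold of the lists, with a range from 5.41 to 13.8. Over the whole si-CHAF1A list 95.6% of peaks did so. With the si-CHAF1A list limited to the 76313 strongest of its 97653 peaks, 10 of the 16 were left. Of all 25 si-CHAF1A peaks at these genes, 18 were left. The share left among all si-CHAF1A peaks without a partner is not given here. The FGG promoter peak, the peak at the G6PC1 start and the strongest CPS1 peak were among the 10. The scaled value is that of an average draw of reads and does not allow for peaks having been picked for passing the threshold.

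**Figure D3:**
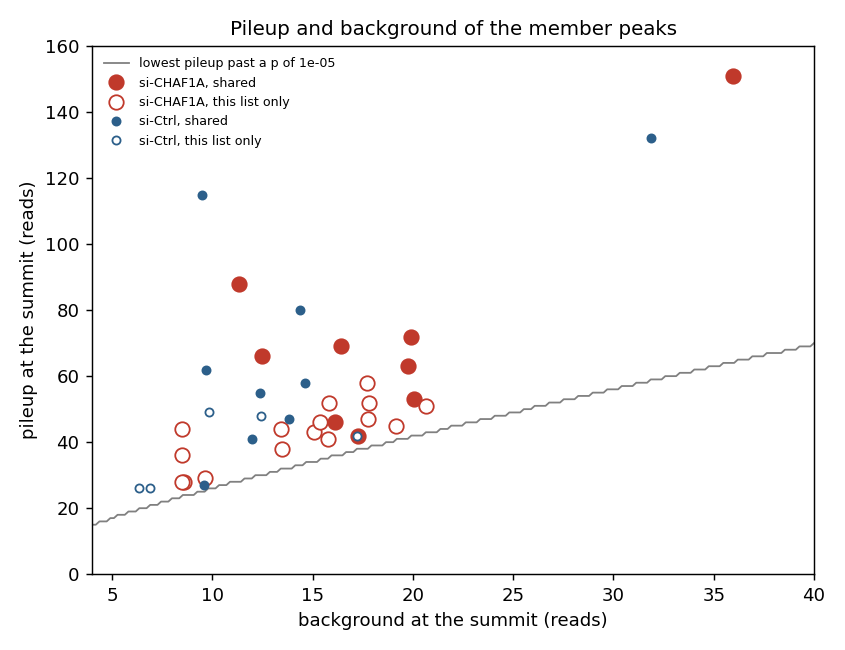
Reads piled up at the summit against the local background for each peak within 10 kb of the 10 genes, both in reads, with large points for si-CHAF1A, small points for si-Ctrl and filled points for shared peaks; the grey line is the lowest pileup that passes a p of 1e-05. The unshared peaks have 26 to 58 reads, and the shared peaks of TAT (88 reads in si-CHAF1A, 115 in si-Ctrl) and AMBP (151 and 132) lie far from it.

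Other hepatocyte genes were counted in the same way. All protein-coding genes had a peak within 10 kb in 87.7% (si-CHAF1A) and 85.2% (si-Ctrl). In the si-CHAF1A list only it was 4.86%, in the si-Ctrl list only 2.37%, and in neither 9.91%. Median windows were 28.3 kb for the other secreted liver proteins and 44.5 kb for the other liver metabolic genes. They were 44.0 kb for the liver transcription factors and 30.7 kb for the cholangiocyte markers, beside 44.1 kb for all genes. Of 20 other secreted liver proteins, 14 had a peak within 10 kb in the si-CHAF1A list and 12 in the si-Ctrl list. APOB, the fibrinogen genes FGA and FGB, and SERPINC1 (antithrombin) had one in the si-CHAF1A list only, with −log10 q of at most 10.5. RBP4 (retinol carrier) and C9 (complement) had one in the si-Ctrl list only, and APOC3, TTR, HP and CRP had none in either. The strongest peaks were near A1BG (−log10 q 91.7 in si-CHAF1A, 84.6 in si-Ctrl) and APOA2 (41.6 and 88.7). Of 20 other liver metabolic genes, 15 had a si-CHAF1A peak and 16 a si-Ctrl peak, led by HPD, a further enzyme of tyrosine breakdown (220 and 150), and by the bile acid transporter SLC10A1 (197 and 135). CYP8B1 had a peak in the si-Ctrl list only, and ARG1, TDO2, UGT2B7 and ADH1B had none.

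Of 13 liver transcription factors, 12 had a si-CHAF1A peak and 13 a si-Ctrl peak. FOXA3 led with −log10 q of 104 in the si-CHAF1A list and 144 in the si-Ctrl list and ONECUT1 had a weak si-Ctrl peak only (5.05). Of 16 cholangiocyte markers, 15 had a si-CHAF1A peak and all 16 a si-Ctrl peak, with TFF3 in the si-Ctrl list only. CLDN4 (114 and 192), MUC1 (135 and 79.9) and KRT19, a biliary keratin (47.3 and 88.1), were among the strongest. The median density over genes was 6.76 peaks per 100 kb for the 10 hepatocyte genes in the si-CHAF1A list and 3.42 in the si-Ctrl list. It was 4.75 and 2.63 for the other secreted liver proteins and 3.52 and 2.65 for the other liver metabolic genes. For the liver transcription factors it was 8.09 and 5.30 and for the cholangiocyte markers 9.54 and 10.0, beside 5.91 and 4.57 for all protein-coding genes. A peak in these windows may belong to a neighbouring gene, as for APOA2 and NR1I3, which share their strongest peak. The strongest peaks of A1BG, APOA2, SLC10A1, FOXA3, KRT19 and CLDN4 lay outside the gene in both lists. Those of MUC1 lay within the gene, and those of HPD ran across the gene end with the higher coordinate (121888611) and past it.

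**Figure D4:**
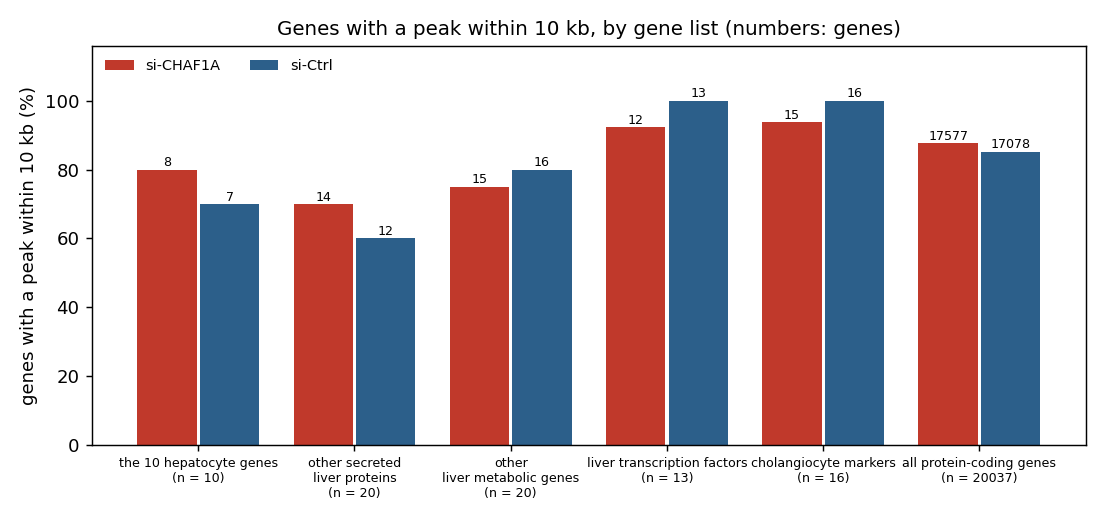
Percent of genes with at least 1 peak within 10 kb, for the 10 hepatocyte genes, 4 other gene lists and all protein-coding genes, with si-CHAF1A bars to the left of si-Ctrl bars and the number of genes above each bar. The 10 hepatocyte genes stand at 80.0% in si-CHAF1A and 70.0% in si-Ctrl, and all protein-coding genes at 87.7% and 85.2%. Their median windows were 32.5 kb and 44.1 kb.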

How the data were processed

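CUT&Tag peak lists of 2 groups of 2 samples were used, 1 list per group. Whether the replicates were merged, and whether background came from a control library, is not stated per the labels and file headers. The list named si was read as that of the CHAF1A siRNA and the one named NC as that of the control siRNA, from names that only partly resemble the titles. The submitters' processing notes name the build hg38 and the tools MACS2 2.1.2, Bowtie2 2.2.5, deepTools 3.4.3 and fastp 0.20.1. The authors deposited for each peak a fold enrichment, which is a ratio, −log10 values of p and q, and a summit offset. The deposited score is 10 times −log10 p, rounded down, and was not used.

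Starts were converted to count from 1. Pileup and background were solved from fold, taken as (pileup + 1)/(background + 1), and the Poisson p for peaks with −log10 p under 290, with 99.99% of pileups whole within 0.02 reads. Overlap and solving were tested on simulated data. A gene of RefSeq (GRCh38.p14) had a peak where an interval touched its window. Strand came from the RefSeq promoter table, which was not used for TAT, ASGR1 and APOA1. Promoter motifs were searched in the 250 bases before each start. Some genes and motifs that the rules take are not reported here. Neighbouring genes are those overlapped by a peak or with an end within 1 kb of it. The named genes are the 10, those neighbours, and the strongest and the unshared genes of each other list. The 10 genes, the lists and the rules were chosen with earlier results of these data known, and the promoter windows, the fold of 1.5 and the gene clusters were added after seeing the values here. No test between the groups was made. Binomial intervals are exact (Clopper-Pearson, 95%). Alternatives changed the threshold, list length, depth, window and overlap. The work used scipy 1.17.1, pandas 2.3.3, numpy 2.4.6 and matplotlib 3.10.9 under Python 3.11.15.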

Additional observations from a re-analysis of the deposited data

How the results depend on the processing

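The numbers of genes with a peak kept within 1.5 times under each alternative tried. The shares of overlapping peaks kept within their binomial intervals, which are wide for so few peaks. In the si-CHAF1A list they ran from 28% (50% reciprocal overlap) to 55.6% (−log10 q of at least 10). In the si-Ctrl list they ran from 50% (50% reciprocal overlap) to 80% (3 kb window). With −log10 q of at least 10 they were 55.6% (5 of 9 peaks) and 62.5% (5 of 8), beside 36.0% and 64.3% in the deposited lists. The shares over all peaks at that threshold are not given here. The number of genes ran from 6 to 9 in the si-CHAF1A list and from 5 to 8 in the si-Ctrl list. The number of peaks at the 10 genes moved with the threshold and the window. With −log10 q of at least 10 it was 9 in the si-CHAF1A list and 8 in the si-Ctrl list, within the gene bodies alone 14 and 7, and with a 50 kb margin 83 and 51. With equal numbers of peaks per list it was 18 and 14, and with the si-CHAF1A list scaled to the si-Ctrl depth 25 and 14. With 50% reciprocal overlap, 7 pairs were left, without the upstream start of SERPINA1 and the peak inside G6PC1. Leaving out a sample could not be done, since neither list has values for single samples. No paired analysis was possible because neither list has values for single samples. A site under the threshold of a list counts as absent from it, whatever its reads.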

Other observations

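The fibrinogen genes FGB, FGA and FGG lie side by side over 49.7 kb of chromosome 4 (154562980 to 154612656). With 10 kb on each side, this stretch had 4 si-CHAF1A peaks with fold enrichments of 2.62 to 3.90 and 1 si-Ctrl peak with 4.61, and none of them was shared, beside 47.5% of all si-CHAF1A and 61.9% of all si-Ctrl peaks that were. Each of the 3 genes had a si-CHAF1A peak in its window, and the si-Ctrl peak lay in that of FGG. Only 1 of the 4 si-CHAF1A peaks was left with equal numbers of peaks per list.

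The serpin genes around SERPINA1, from SERPINA10 to SERPINA12, span 237 kb of chromosome 14 (94280460 to 94517844). With 10 kb on each side they had 23 si-CHAF1A peaks, of which 12 were shared, and 17 si-Ctrl peaks, of which 13 were shared. With −log10 q of at least 10 there were 9 in each list. The apolipoprotein genes APOA5 to APOA1 had 1 si-CHAF1A peak (fold enrichment 3.20) and no si-Ctrl peak, and the albumin genes had none in either list. These clusters were chosen after their values had been seen.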
